A study of Mus musculus with 6 samples.

Results

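The 31 genes described here mark intestinal stem cells or respond to Wnt signaling. They were taken by gene symbol, and every probe set that the array annotation assigned to 1 of them alone was used. A probe set is a group of short DNA probes that reports on 1 transcript. Of the 31 genes, 27 had such probe sets, 53 of the 22690 on the array, with 1 to 6 per gene. Tcf7, Olfm4, Znrf3 and Rgmb had none under this rule and were not analysed here. The samples were 6 mouse intestinal tumors from 6 different mice, 3 from the duodenum and 3 from the cecum, each on 1 Affymetrix expression array. All 6 mice were Rb1 deficient and carried Apc1638N, an Apc allele that predisposes to intestinal tumors, so both groups share the genotype. The duodenal group could include tumor tissue from the pylorus, per the labels. The labels do not state how Rb1 was lost, the strain background or the ages. Normal tissue was not analysed here, and the values compare duodenal with cecal tumors. RNA came from whole tumors, in which fewer cells of a type and less RNA per cell cannot be told apart.

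Wnt ligands at the crypt base keep intestinal stem cells dividing by stabilising beta-catenin, which enters the nucleus and switches on target genes together with DNA-binding factors of the TCF/LEF family. Loss of Apc, a scaffold of the complex that destroys beta-catenin, turns these targets on without a ligand, which is the usual first step of intestinal tumors. Many targets are themselves inhibitors of the pathway, so their level is often read as the strength of the signal, and others, such as Lgr5 and Ascl2, mark the stem cells themselves.

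The 2 sites differed in few of these genes unless tumors of the same replicate number were compared with each other. Of the 53 probe sets, 47 from 26 genes were bright enough to be tested, meaning brighter than the 40th percentile of the array (92.4 to 100.6) on 3 or more of the 6. With limma on log2(intensity + 16), 4 probe sets were higher and 2 lower in duodenal tumors at an adjusted p under 0.05. That is 12.8% of the 47, beside 9.30% of all 13866 tested probe sets. The 4 that were higher make 8.51%, beside a background of 4.07%, and belong to Cd44, Cd24a and Sox9. The 2 that were lower, beside a background of 5.24%, both belong to Tcf7l1, and 1 of them was bright enough only in the cecal tumors. With the brightest probe set of each gene alone, 3 of 26 genes passed (11.5%), beside 10.9% of all 8129 probe sets tested that way, so per gene the share was near the background. Over all 53 probe sets the median log2 fold, duodenal minus cecal, was 0.51, and 38 were positive. Over all 22626 probe sets of the array other than controls the median was 0.025, and 55.9% of the tested ones were positive. By the brightest probe set, 19 of the 27 genes had a higher mean in duodenal and 8 in cecal tumors.

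**Figure D1:**
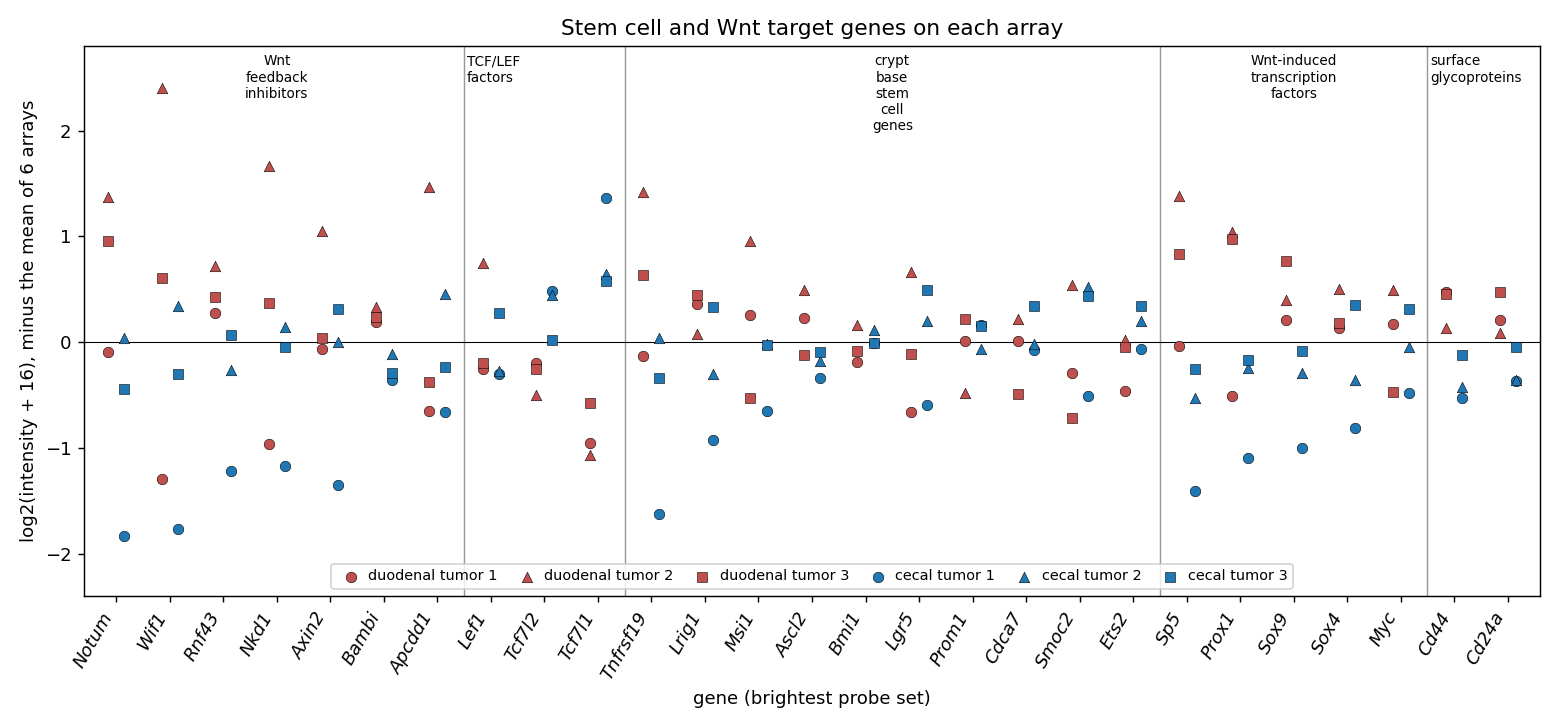
Each point is 1 array, plotted as log2(intensity + 16) minus the mean of the 6 arrays, for the brightest probe set of each of 27 genes, grouped by role. Red marks duodenal and blue cecal tumors, and the shape gives the replicate number. Duodenal tumor 2 (red triangles) tops many of the genes and cecal tumor 1 (blue circles) is at the bottom of most.

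Tumors of the same number resembled each other, and the count of genes that pass depended on how this was treated. Cecal tumor 1 had the lowest cecal value in 40 of the 47 probe sets (85.1%, beside 40.4% of all tested probe sets). Duodenal tumor 2 had the highest duodenal value in 32 (68.1%, beside 37.6%). Cecal tumor 2 had the highest cecal value in only 16 of the 47, beside 31.9% of all tested probe sets, and cecal tumor 3 in 25. The number 2 tumors were the highest of their own site at both sites in 14 (29.8%, beside 13.4%), and 7 of these 14 were Wnt feedback inhibitors. Duodenal tumor 2 and cecal tumor 2 were also the only arrays with Xist above the Y-linked genes (Xist at 4169 and 4486, and at most 61.6 on the other 4), so both number 2 tumors came from female mice. Number 2 and female sex therefore cannot be told apart within these arrays. When the fit held the replicate number as a block, 15 probe sets were higher and 3 lower in duodenal tumors, 38.3% of the 47 beside 11.3% of all tested probe sets. The 15 that were higher make 31.9%, beside a background of 5.21%, and the background of the 3 that were lower was 6.12%. The labels state no pairing of the mice, so every blocked value rests on a pairing read from these data. With sex as a term in place of the number, 7 of the 47 passed, beside 9.38% of all tested probe sets. Without cecal tumor 1 limma called no probe set higher in duodenal tumors and 2 lower, beside 1.99% and 2.75% of all tested probe sets. At an unadjusted p under 0.05 that fit had 12 higher and 5 lower, beside 9.03% and 9.85%. Without cecal tumor 3 it called 10 and 3, beside 3.69% and 4.82%. On male arrays only it called 0 higher and 2 lower, beside 2.61% and 2.40%. There 13 and 3 had an unadjusted p under 0.05, beside 9.47% and 8.57%. In the fit of all 6 arrays the unadjusted p was under 0.05 for 14 higher and 4 lower, beside 11.8% and 11.5% of all tested probe sets.

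**Figure D2:**
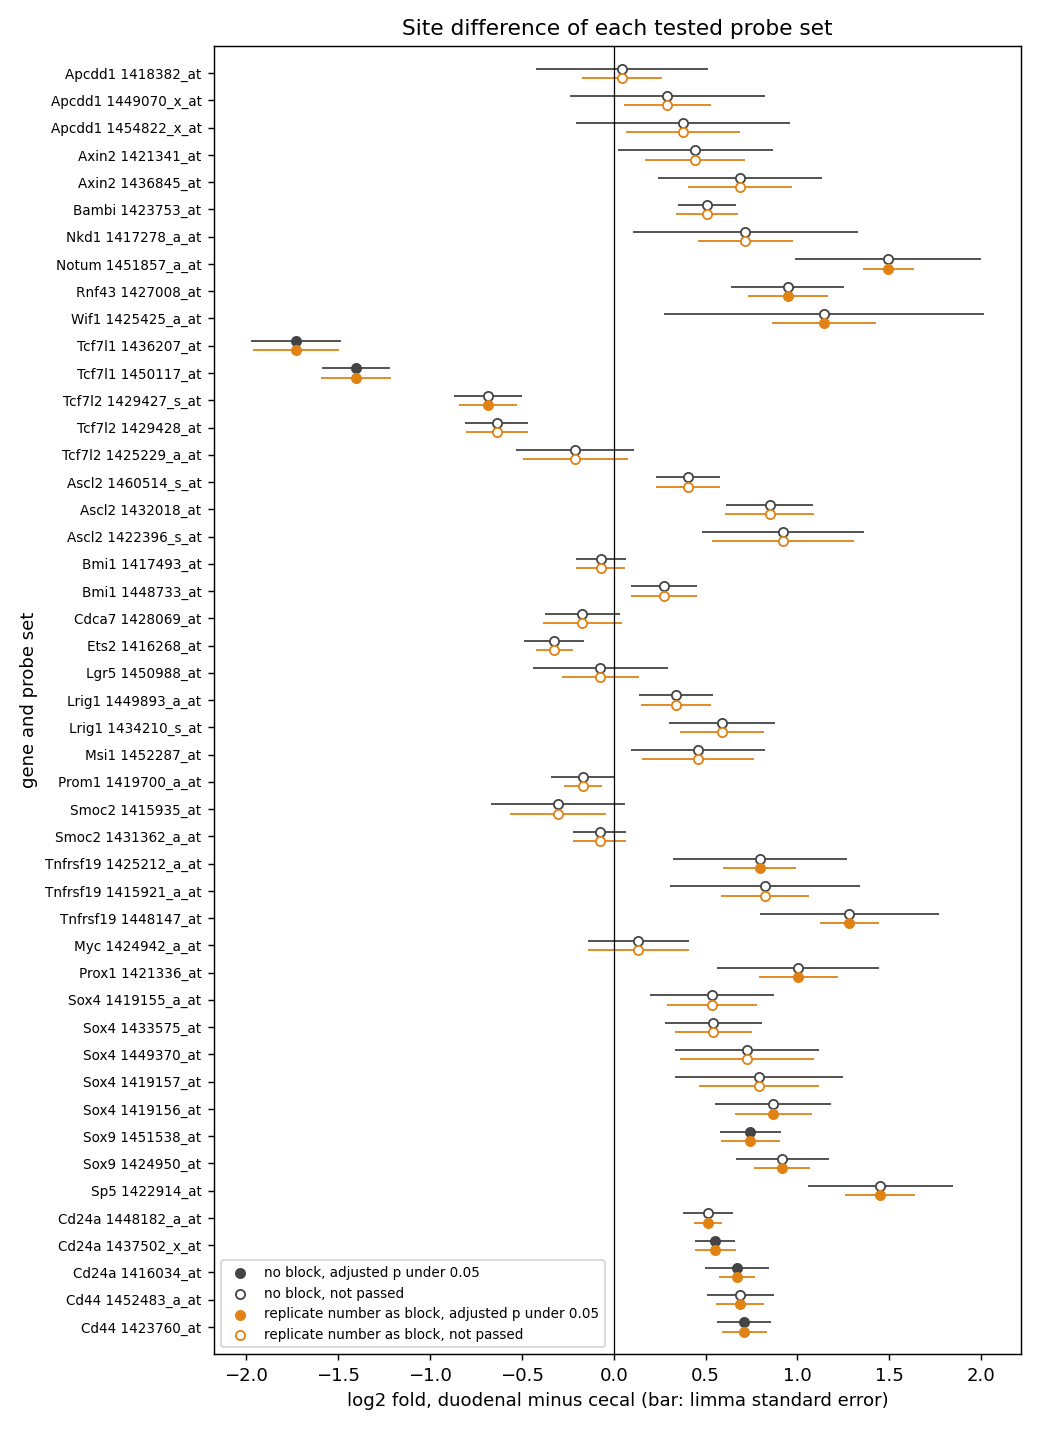
The log2 fold of each of the 47 tested probe sets, duodenal minus cecal, with the limma standard error as a bar, for the fit without (dark) and with (orange) the replicate number as a block. Filled points had an adjusted p under 0.05, 6 without and 18 with the block. The folds are the same in both fits and most bars are shorter with the block.

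The surface glycoproteins were higher in duodenal tumors by moderate amounts. Cd44, a hyaluronan receptor that Wnt signaling induces in crypts and adenomas, had intensities of 4637, 3658 and 4589 in duodenal tumors 1, 2 and 3, against 2317, 2481 and 3072 in cecal tumors 1, 2 and 3, the order used throughout. The lowest duodenal value lay above the highest cecal one. The log2 fold was 0.71 ± 0.15 (SE), or 1.64-fold, with a limma adjusted p of 0.0215. Cd44 did not pass once duodenal tumor 1 (adjusted p = 0.082), duodenal tumor 3 (0.0667), cecal tumor 1 (0.0852) or cecal tumor 2 (0.0873) was left out, nor on male arrays only (0.0599). A second Cd44 probe set had 2013, 1978 and 2441 in the duodenal tumors, against 1057, 1284 and 1686 in the cecal tumors, a log2 fold of 0.69 (adjusted p = 0.0533 without and 0.0159 with the block).

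Cd24a encodes a small anchored glycoprotein of crypt cells, Paneth cells and immature lymphocytes. Its brightest probe set read 10147, 9357 and 12188 in the duodenal tumors, against 6796, 6851 and 8526 in the cecal tumors. That is a log2 fold of 0.51 ± 0.14 (SE), which missed the threshold (limma adjusted p = 0.0521) and passed with the block (0.0063). A second one had 7662, 7338 and 9718 against 4203, 4981 and 6443 and passed narrowly (log2 fold 0.67, adjusted p = 0.0499). It did not pass once any array other than cecal tumor 3 was left out, with adjusted p-values of 0.0618 to 0.157. The dimmest read 3669, 3385 and 3388 against 2312, 2222 and 2576 (log2 fold 0.55, adjusted p = 0.0168). It did not pass once duodenal tumor 1 (0.0766), cecal tumor 1 (0.0616) or cecal tumor 2 (0.0808) was left out, nor on male arrays only (0.125). The ID of this probe set ends in _x_at, which marks probes that can also bind other transcripts. All 5 probe sets of the 2 genes separated the sites, as did 15.7% of all tested probe sets with duodenal tumors above.

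Among transcription factors that Wnt signaling induces, 4 of 10 tested probe sets separated the sites with duodenal tumors above, beside 15.7% of all tested probe sets. They were both of Sox9, the 1 of Sp5 and 1 of the 5 tested of Sox4. Sox9, which crypt progenitors and Paneth cells need, had 754.7, 710.2 and 873.5 in the duodenal tumors, against 371.9, 526.6 and 487.6 in the cecal tumors by 1 probe set. It was higher in duodenal tumors by a log2 fold of 0.74 ± 0.17 (SE; limma adjusted p = 0.0275). This call did not hold once duodenal tumor 1 (0.0776), duodenal tumor 3 (0.0932) or cecal tumor 1 (0.0732) was left out, nor on male arrays only (0.0581). The other probe set had 732, 837.2 and 1091 against 309.1, 512.9 and 594.5. It gave 0.92 ± 0.25, with adjusted p-values of 0.0608 without and 0.0101 with the block.

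Sp5 is a zinc finger factor and a direct target of beta-catenin with TCF/LEF factors. It had 272.6, 753.7 and 510.6 in the duodenal tumors, against 96, 189.8 and 232.4 in the cecal tumors, so the groups did not overlap. The log2 fold of 1.45 ± 0.40 (SE), or 2.73-fold, missed the threshold (limma adjusted p = 0.0602). It passed with the block (0.00384), with sex as a term (0.0406) and without duodenal tumor 1 (0.0248). It did not pass with array weights (0.0997), on male arrays only (0.196) or without any other single array (up to 0.176). Duodenal tumors exceeded the cecal tumor of the same number by log2 differences of 1.37, 1.90 and 1.08. The 250 bases before the Sp5 start site are shown because they hold 2 copies of CTTTGA, the core of the sequence that TCF/LEF factors bind. The start sites and sequences are from RefSeq (GRCm38.p6), and capitals mark the motif on either strand (CTTTGA or TCAAAG). The Tnfrsf19 sequence belongs to the second of 2 start sites of that gene, a Wnt-induced receptor described with the stem cell genes.
Sp5, chr2:70474673-70474922, + strand: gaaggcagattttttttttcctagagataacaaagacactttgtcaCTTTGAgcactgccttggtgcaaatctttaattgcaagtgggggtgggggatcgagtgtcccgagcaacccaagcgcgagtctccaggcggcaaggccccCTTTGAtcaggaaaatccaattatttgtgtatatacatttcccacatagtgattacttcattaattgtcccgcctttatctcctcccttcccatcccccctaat
Tnfrsf19, chr14:61037988-61038237, - strand: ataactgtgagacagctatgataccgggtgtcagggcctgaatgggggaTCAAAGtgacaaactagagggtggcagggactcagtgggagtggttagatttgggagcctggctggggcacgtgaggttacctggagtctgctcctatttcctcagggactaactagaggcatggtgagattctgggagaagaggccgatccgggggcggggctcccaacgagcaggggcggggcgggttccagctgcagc
The Sp5 matches begin 204 and 104 bases before the start site and the Tnfrsf19 match 201 bases before it. The RefSeq table held 32 such windows for 21 of the 31 genes, and 3 of them (9.38%) had a match, the other gene being Lef1, in 1 of its 4 windows. Among all 32851 windows, 13.8% had a match and 1.37% had 2 or more. A match in a window is a description of its letters and no evidence of binding.

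The remaining genes of that role, Prox1, Sox4 and Myc, had no probe set that passed without the block. Prox1, a homeobox factor of intestinal adenomas, had 76.2, 253.3 and 242.2 in the duodenal tumors, against 45.3, 95.1 and 100.6 in the cecal tumors. Duodenal tumor 1 lay within the cecal range (log2 fold 1.00 ± 0.44 SE, limma adjusted p = 0.218). Prox1 was dim, above the 40th percentile in 2 duodenal tumors and 1 cecal tumor. It passed in the blocked fit (0.0261) and once duodenal tumor 1 was left out (0.0343), but not without any other single array (up to 0.49) or on male arrays only (0.482). Sox4, a factor of progenitor cells, was read by 6 probe sets, 5 of them tested. Their log2 folds ran from 0.53 to 0.87 and none passed, with adjusted p-values of 0.14 to 0.398. The Sox4 probe set at 0.87 had 939.2, 1440 and 976.3 in the duodenal tumors, against 346.1, 766 and 786.3 in the cecal tumors. These groups did not overlap, and it passed with the block (0.0406). In the other 4, cecal tumor 3 exceeded duodenal tumor 3. Myc, the growth factor-responsive regulator whose induction by Wnt is central to tumors after Apc loss, had 1025, 1279 and 649.8 in the duodenal tumors, against 645.1, 878.5 and 1129 in the cecal tumors. The groups overlapped (log2 fold 0.14 ± 0.28 SE, adjusted p = 0.823).

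Several feedback inhibitors varied widely from tumor to tumor. In 7 of their 10 tested probe sets the number 2 tumor was the highest at both sites, beside 13.4% of all tested probe sets. All tested probe sets of Apcdd1 are among these 7, so they are not 7 separate genes. None of the 10, from 7 genes, passed without the block. At an unadjusted limma p under 0.05, 3 were higher in duodenal tumors, beside 11.8% of all tested probe sets. With the block 3 were higher, beside 5.21% of all tested probe sets: those of Notum, Wif1 and Rnf43. Notum, a secreted enzyme that inactivates Wnt ligands by removing their lipid, had 954.8, 2671 and 1991 in the duodenal tumors, against 274.5, 1045 and 744.2 in the cecal tumors. Duodenal tumor 1 overlapped cecal tumor 2, yet each duodenal tumor exceeded the cecal tumor of its number, by log2 differences of 1.74, 1.34 and 1.40. The log2 fold was 1.49 ± 0.51 (SE; adjusted p = 0.117) without the block and 1.49 ± 0.14 (SE; adjusted p = 0.000964) with it. With array weights and no block the log2 fold of Notum was 0.80 (limma adjusted p = 0.299).

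Wif1, a secreted protein that binds Wnt ligands, had 253.3, 3465 and 984.8 in the duodenal tumors, against 177.7, 820 and 519.5 in the cecal tumors. The highest duodenal value was 13.7-fold the lowest, and the highest cecal value 4.62-fold the lowest. The log2 fold was 1.15 ± 0.87 (SE; limma adjusted p = 0.487), or 1.15 ± 0.28 with the block (0.0427), and -0.04 with array weights (adjusted p = 0.983). Nkd1, an inhibitor that acts on Dishevelled inside the cell, had 177.2, 1177 and 469 in the duodenal tumors, against 151.2, 398.5 and 347.4 in the cecal tumors. Each duodenal tumor again exceeded its cecal counterpart, but Nkd1 passed neither fit (log2 fold 0.72, with adjusted p-values of 0.547 without and 0.132 with the block), and its log2 fold was -0.07 with array weights.

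Rnf43 encodes a ubiquitin ligase that removes Wnt receptors from the cell surface. It had 769.7, 1055 and 855 in the duodenal tumors, against 262.8, 524.5 and 662.9 in the cecal tumors, with no overlap (log2 fold 0.95 ± 0.31 SE, limma adjusted p = 0.101). It passed in the blocked fit (0.0337) and once cecal tumor 3 was left out (0.0435), but not without any other single array (up to 0.214) or on male arrays only (0.273). Axin2, a scaffold of the destruction complex and a widely used readout of the pathway, had 1013, 2206 and 1088 in the duodenal tumors, against 405.4, 1061 and 1317 in the cecal tumors by its brighter probe set. Cecal tumor 3 exceeded duodenal tumors 1 and 3, and the log2 fold of 0.69 ± 0.45 (SE) passed neither fit (adjusted p = 0.411 without and 0.184 with the block). The other Axin2 probe set gave 0.44 (adjusted p = 0.595). Bambi, a decoy receptor for TGF-beta family ligands that is also a Wnt target, had 173 to 193.2 in the duodenal and 113.2 to 137.8 in the cecal tumors. These groups did not overlap, but its log2 fold of 0.51 ± 0.16 (SE) passed neither fit (adjusted p = 0.0938 and 0.111).

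Apcdd1, a membrane inhibitor that binds Wnt ligands and their receptors, showed the number 2 pattern and passed neither fit between the sites. Its brightest probe set had 172.1, 801.4 and 211.7 in the duodenal tumors, against 171.1, 389.9 and 235.3 in the cecal tumors, so the number 2 tumor was the highest at each site. The 3 tested Apcdd1 probe sets had log2 folds of 0.04 to 0.38, with standard errors of 0.47 to 0.58 (limma adjusted p = 0.757 to 0.97). On male arrays only the 3 folds were -0.18 to -0.07. The fourth was above the 40th percentile on 2 arrays, those of the number 2 tumors, and was not tested.

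**Figure D3:**
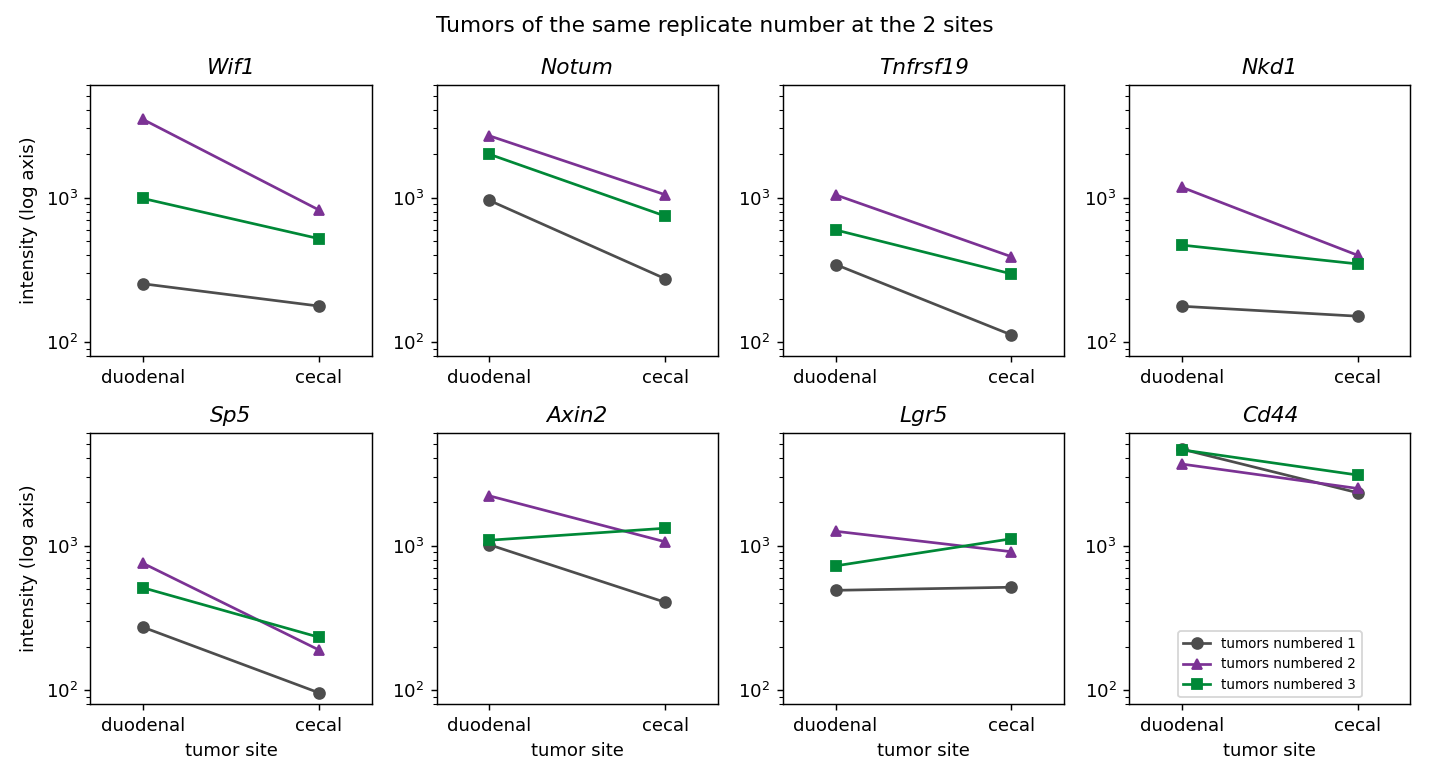
Intensity on a log axis for 8 genes, with a line from each duodenal tumor to the cecal tumor of the same replicate number. For Wif1, Notum, Tnfrsf19 and Nkd1 the 3 lines keep one order, number 2 highest and number 1 lowest, and all fall from duodenal to cecal. For Axin2 and Lgr5 the number 3 line rises, and for Cd44 the 3 lines lie close together.

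The genes that define crypt base stem cells did not pass between the sites, with 1 exception under the block. None of their 17 tested probe sets, from 10 genes, passed without the block. At an unadjusted limma p under 0.05, 2 were higher in duodenal tumors, beside 11.8% of all tested probe sets, so this share was near the background. Lgr5, the R-spondin receptor that marks dividing crypt base stem cells, was above the 40th percentile in all 6 tumors, with 490.4, 1255 and 723.8 in the duodenal tumors, against 515, 906.4 and 1114 in the cecal tumors. The cecal values lay within the duodenal range, and the log2 fold was -0.07 ± 0.37 (SE; adjusted p = 0.934 without and 0.866 with the block). Ascl2, the factor that sets stem cell fate in the crypt, was read by 3 probe sets with log2 folds of 0.40 to 0.92 (adjusted p = 0.0646 to 0.259). One of them had 464.4, 582 and 391 in the duodenal tumors, against 202.5, 226 and 362.1 in the cecal tumors, which did not overlap, and passed neither fit (0.0646 and 0.0684). It passed once cecal tumor 3 was left out (0.0192) and with array weights (0.0243). It did not pass without any other single array (up to 0.194) or on male arrays only (0.328). In the other 2, cecal tumor 3 exceeded duodenal tumor 3.

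Tnfrsf19, also called Troy, is a receptor of the TNF family on stem cells that Wnt signaling induces. It had 344.3, 1043 and 596.9 in the duodenal tumors, against 112.2, 389.7 and 296.5 in the cecal tumors by its brightest probe set, with duodenal tumor 1 inside the cecal range. Each duodenal tumor exceeded the cecal tumor of its number, by log2 differences of 1.49, 1.39 and 0.97. The log2 fold was 1.28 ± 0.49 (SE; limma adjusted p = 0.156) without and 1.28 ± 0.16 (SE; 0.00308) with the block. With array weights and no block it was 0.66 (limma adjusted p = 0.367). The other 2 Tnfrsf19 probe sets gave 0.80 and 0.82 and adjusted p-values with the block of 0.0442 and 0.0759. The number 2 tumor was the highest at both sites in all 3.

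The remaining stem cell genes overlapped between the sites. Smoc2, a secreted matrix protein of the crypt base, had 696.6, 1250 and 514.2 in the duodenal tumors, against 595.8, 1229 and 1163 in the cecal tumors (log2 fold -0.30, limma adjusted p = 0.677). Prom1, the membrane protein CD133, had 6410 to 10460 in the duodenal and 8542 to 10055 in the cecal tumors (adjusted p = 0.629). Bmi1, a Polycomb protein linked to reserve stem cells, was the 1 gene of 13 with several tested probe sets whose folds differed in sign, at 0.28 and -0.07. Lrig1, a brake on growth factor receptors in stem cells, had log2 folds of 0.34 and 0.59 in its tested probe sets (adjusted p = 0.368 and 0.268). The RNA-binding protein gene Msi1 had a log2 fold of 0.46 (adjusted p = 0.514). Ets2, a transcription factor, and Cdca7, a chromatin protein of dividing cells, had log2 folds of -0.32 and -0.17 (adjusted p = 0.287 and 0.673).

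Among the DNA-binding factors through which the pathway acts, only Tcf7l1 passed without the block, in the opposite direction to Cd44, Cd24a and Sox9. Tcf7l1, which in stem cells acts mainly as a repressor of Wnt targets, was lower in duodenal tumors. Its brighter probe set had 95.6, 87.2 and 128.9 in the duodenal tumors, against 540.6, 322.6 and 306.3 in the cecal tumors, 3.31-fold higher in cecal tumors (log2 fold -1.73 ± 0.25 SE, limma adjusted p = 0.00449). It was above the 40th percentile in 1 of the 3 duodenal tumors. This call held without each single array (adjusted p of at most 0.0172), with the block (0.00431) and on male arrays only (0.0247). The other had 82, 71.9 and 94.3 against 292.4, 218.5 and 225.8. It was below the 40th percentile in all 3 duodenal tumors, so it is at least 2.43-fold higher in cecal tumors (log2 fold -1.40, adjusted p = 0.00318), and since it was tested only through the cecal group it adds no separate support.

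Tcf7l2, the main partner of beta-catenin in the intestinal epithelium, was read by 4 probe sets. The brightest had 382.8, 307.3 and 368.4 in the duodenal tumors, against 626, 608.7 and 448.1 in the cecal tumors, and the next 182.7, 157.9 and 148.1 against 338.9, 249.2 and 233.6. Neither overlapped between the sites, as was so for 13.8% of all tested probe sets with cecal tumors above. Their log2 folds of -0.64 ± 0.17 and -0.68 ± 0.18 (SE) missed the threshold (limma adjusted p = 0.0562 and 0.0556). With the block the second passed (0.0347) and the first did not (0.0569), and both passed with quantile normalization (0.0497 and 0.0489). Neither passed on male arrays only (0.315 and 0.195) or with sex as a term (0.0734 and 0.0694). With 1 array left out, the first passed only without cecal tumor 3 (0.028) and otherwise reached up to 0.188. The second passed without no single array (0.0595 to 0.151). The 2 dimmer Tcf7l2 probe sets overlapped between the sites, and only 1 was tested (log2 fold -0.21, adjusted p = 0.755). Lef1, the factor of the family typical of lymphocytes and of strongly activated Wnt signaling, stayed at 30.3 to 79.8, below the 40th percentile on all 6 arrays.

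**Figure D4:**
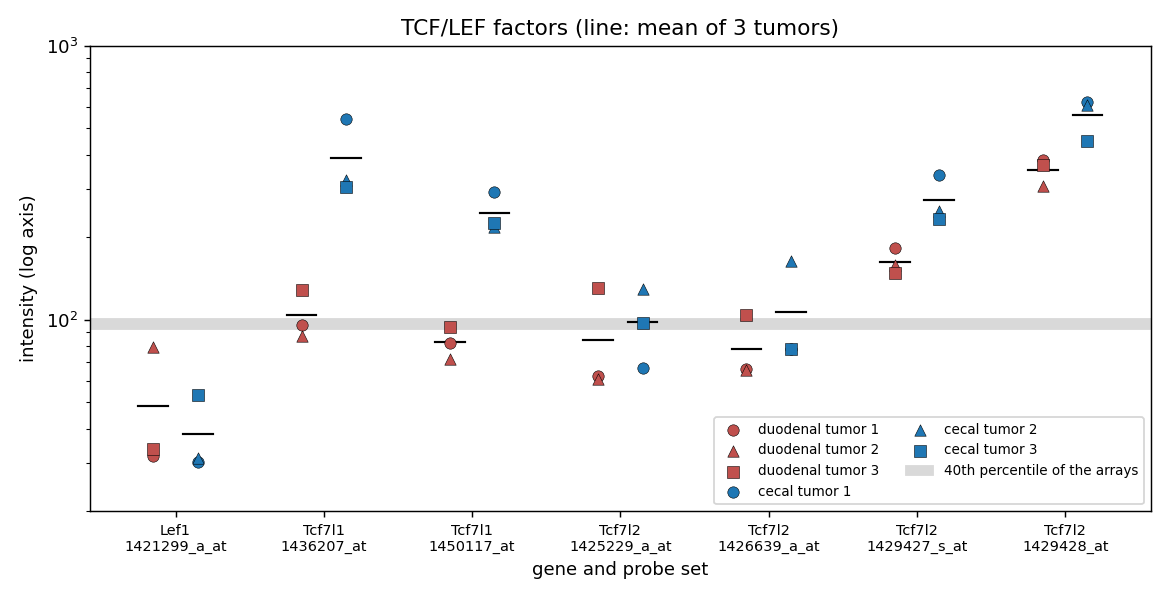
Intensity on a log axis of the 7 probe sets of TCF/LEF factors, with a point for each tumor, a line at the mean of 3 tumors and the range of the arrays' 40th percentiles in gray. Cecal tumors lie above duodenal tumors without overlap for both Tcf7l1 and 2 of the Tcf7l2 probe sets, and Lef1 is below the gray band throughout.

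Other Wnt targets, a list of 39 further genes, also split in direction. The list was chosen from general knowledge of the pathway with earlier results of these data known, so it gives no independent support. Of 44 tested probe sets from 24 genes, 5 were higher and 3 lower in duodenal tumors, beside 4.07% and 5.24% of all tested probe sets. With the block 10 were higher and 3 lower, beside 5.21% and 6.12%. With the brightest probe set of each gene alone, 2 of 24 passed (8.33%), beside 10.9% of all probe sets tested that way. The median log2 fold of the 44 was 0.28, beside 0.04 over all 13866 tested. The 5 that were higher came from Id2 and Ccnd2. Id2, an inhibitor of differentiation factors, had 1968, 2022 and 1868 in the duodenal tumors, against 1043, 906.1 and 798.5 in the cecal tumors by its brighter probe set (log2 fold 1.09 ± 0.13 SE, limma adjusted p = 0.00205). Ccnd2, a G1 cyclin, had 3 probe sets that passed, with log2 folds of 0.69 to 1.02 (adjusted p = 0.0304 to 0.0492). Each of the 3 failed to pass in most fits that left out 1 array, with adjusted p-values up to 0.17, and 1 of them also with the block (0.0671). The brightest Ccnd2 probe set, at a log2 fold of 0.93, missed the threshold (limma adjusted p = 0.0626) and passed with the block (0.0162). Those at 0.83 and 0.775 did not pass without the block (0.101 and 0.25). The 3 that were lower came from L1cam, a cell adhesion protein, and Dpep1, a membrane dipeptidase. One of them, the dimmer L1cam probe set, was below the 40th percentile in all 3 duodenal tumors and was tested only through the cecal group. The brighter L1cam probe set had 506.8, 577.3 and 396.3 in the duodenal tumors, against 1552, 1763 and 1455 in the cecal tumors (log2 fold -1.67 ± 0.16 SE, adjusted p = 0.000761). Dpep1 had a log2 fold of -0.85 (adjusted p = 0.0356), which did not pass once any 1 array was left out (0.0567 to 0.119). This probe set was above the 40th percentile in 1 of the 3 duodenal tumors. Another Dpep1 probe set overlapped between the sites and passed neither fit (log2 fold -0.76, limma adjusted p = 0.182 and 0.162).

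Tissue makeup differed between the sites alongside these genes, and its part in them was not tested. The summed intensity of 7 gastric mucous cell markers was 63059 to 90096 in the duodenal and 1183 to 2066 in the cecal tumors, and all 7 were higher in duodenal tumors, 5 of them tested only through that group. The sum of 10 epithelial markers was 70470 to 80483 in the duodenal and 89156 to 93315 in the cecal tumors, with 3 of 10 higher in cecal tumors. The sum of 8 fibroblast markers was 12662 to 15918 against 17933 to 22482, with 3 of 8 higher in cecal tumors. Of 9 proliferation genes, which overlapped between the sites in their sum (13265 to 19931 against 15858 to 22358), none passed by limma and 1 had an unadjusted p under 0.05. Lymphocytes also express Lef1, Cd44 and Cd24a, and of 8 T cell and 5 B cell markers, 6 and 4 were below the 40th percentile on all 6 arrays. Paneth cells have high Sox9 and Cd24a, and the folds of their markers differed in sign. Lyz1, a Paneth cell lysozyme, was higher in cecal tumors (log2 fold -0.93, limma adjusted p = 0.0121), while Itln1, Pla2g2a and Mptx1 did not pass (log2 folds of -0.11, 0.33 and 2.49). The ID of the Lyz1 probe set ends in _x_at, so its probes can also bind other transcripts. The sum of the 4 Paneth cell markers was 18128 to 29313 in the duodenal and 21506 to 41486 in the cecal tumors.

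Markers of other cells also differed. Of 7 goblet cell markers Clca1 was higher in duodenal tumors, and Tff3, Spink4 and Atoh1 were higher in cecal tumors, with sums of 24485 to 36506 in the duodenal and 30780 to 39352 in the cecal tumors. Of 8 enterocyte markers, 5 of them tested, Fabp1 was higher in duodenal tumors and Slc5a1 and Aqp8 in cecal tumors, with Fabp1 and Aqp8 each tested only through the group where it was high. The enterocyte sums were 2161 to 8514 against 3563 to 10298. The sums of 8 macrophage and monocyte markers, 7459 to 8567 in the duodenal and 9130 to 10992 in the cecal tumors, did not overlap, and none of the 7 tested passed by limma, with 3 at an unadjusted p under 0.05. Of 6 smooth muscle and 5 endothelial markers tested none passed, with 0 and 1 at an unadjusted p under 0.05. S100b, the 1 marker of enteric glia and neurons that was tested, was higher in duodenal tumors and was tested only through them.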

How the data were processed

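RNA of each tumor was hybridised to 1 array. The deposited values are linear intensities of probe sets, made by the authors with MAS5 (submitters' processing notes). No version, scaling target or detection call was given, and nothing was rescaled here. The arrays' median intensities were 164.6 to 181.8, and their number limits the precision. Of 22690 probe sets, 20380 named 1 gene, 691 several, 1555 none and 64 controls were dropped. Gene names come from the platform annotation, and all 31 symbols are in the RefSeq table. Probe sets above the 40th percentile on at least 3 arrays were tested as log2(intensity + 16), which understates changes of dim genes, with limma 3.58.1 in R 4.3.3 (intensity trend, two-sided, Benjamini-Hochberg over 13866 probe sets). Where a group was dim on all arrays, the fold is a bound at that percentile. The test without the block was tested on simulated data in which the arrays varied independently. The blocked fit was not simulated.

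Groups and numbers come from the titles. Same-numbered tumors deviated together from their group means (correlations of 0.274, 0.299 and 0.203, against -0.2 to -0.026 for other pairs), so the number was also fitted as a block pairing the arrays. Members and lists were chosen with earlier results of these data known. Members passing either fit and Lgr5, Ascl2 and Axin2 were to be given in full, and of the other targets up to 12 that passed. Figures used Python 3.11.15, pandas 2.3.3 and matplotlib 3.10.9.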

Additional observations from a re-analysis of the deposited data

How the results depend on the processing

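Of 899 log2 folds of members under the alternatives, 811 kept their direction and their side of the threshold, 35 newly passed, 28 no longer passed and 25 changed sign, the last all in probe sets that did not pass in the full fit. The cause of each change was not tested, unless fewer arrays, fewer probe sets or the threshold itself explain it. With the replicate number as a block 18 member probe sets passed, 12 more than the 6 without it, and no call was lost, while all tested probe sets went from 1290 to 1571 and the other Wnt targets from 8 to 13. The counts for members, all probe sets and other Wnt targets were 10, 1939 and 10 with array weights, 2, 506 and 4 at a threshold of 0.01, and 2, 695 and 4 with the male arrays alone. One probe set per gene gave 3 of 26 members (11.5%), 2 of 24 other targets (8.33%) and 889 of all 8129 (10.9%). The other targets were 5 both with no filter on dim probe sets and with the 60th percentile. Leaving out 1 array gave 2 to 13 members, 658 to 1194 probe sets and 4 to 13 other targets. Array weights turned Wif1 to -0.038, Nkd1 to -0.068 and the 3 Apcdd1 probe sets to -0.45, -0.30 and -0.23. The male arrays alone turned Apcdd1 to -0.18, -0.067 and -0.13, Myc to -0.064 and a dim Tcf7l2 probe set to 0.15, and quantile normalization turned 1 Apcdd1 probe set to -0.011. Without single arrays the folds crossed 0 for Lgr5 (-0.42 to 0.24), Myc (-0.077 to 0.40), Apcdd1 (-0.49 to 0.35, -0.37 to 0.69 and -0.38 to 0.83), the dimmer Axin2 probe set (-0.030 to 0.68), Bmi1 (-0.17 to 0.0064), Cdca7 (-0.32 to 0.027), Prom1 (-0.32 to 0.033) and the dimmer Smoc2 probe set (-0.15 to 0.011). Offsets of 1 and 64, median centring, no intensity trend, sex as a term and leaving out probe sets ending in _x_at or _s_at, the last 2 chosen after seeing the data, kept the counts of members and of all probe sets within 1.5 times. Genes near the 40th percentile (Tcf7l1 in duodenal tumors, Prox1, Lef1, Msi1) are limited by signal over background.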
